A study of Mus musculus with 21 samples.

Results

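Glutamate tRNAs carry glutamate to the codons GAG and GAA, and the nuclear genome encodes them with a pair of anticodons, CTC and TTC. They were taken from the tRNA count tables of mouse cerebrum and cerebellum as every feature named for glutamate that is not mitochondrial. Features are isodecoders, tRNAs that share an anticodon and differ elsewhere in sequence. The cerebrum table held 5 of them among 209 tRNA features, of which 187 were nuclear, and the cerebellum table held 6 among 208, of which 186 were nuclear. Glu-CTC was represented by Glu-CTC-1 and Glu-CTC-2-1 in both tables and by Glu-CTC-5-1 in the cerebellum table, and Glu-TTC by Glu-TTC-1, Glu-TTC-2 and Glu-TTC-3 in both. Each anticodon was also summed, which gave 72 anticodon sums per tissue.

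The study used C57BL/6J mice with a Polr3a mutation brought about by tamoxifen, and wildtype mice that were given tamoxifen as well. Recombination was induced at postnatal day 28 and all tissue was frozen at day 42. The 21 libraries comprised 4 mutant and 6 wildtype cerebrum libraries and 5 mutant and 6 wildtype cerebellum libraries, with males and females in all 4 groups. What drives the recombinase is not stated in the labels, and a bulk sample holds recombined and other cells together. The labels do not say that the libraries of a group came from separate animals, so the p-values measure the spread between these libraries, which may be partly technical. Fewer cells of a type and less tRNA per cell cannot be told apart in bulk tissue.

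The largest subunit of RNA polymerase III is the product of Polr3a, and this enzyme transcribes the nuclear tRNA genes from promoter elements that lie inside the genes. A tRNA with the CTC anticodon reads GAG. The TTC anticodon starts with a uridine that is thiolated in the cytoplasmic tRNAs for glutamate, lysine and glutamine, and it reads GAA and can also read GAG. Glutamate is both a protein building block and the main excitatory transmitter of the brain. Mitochondria have their own glutamate tRNA, which is made by the mitochondrial polymerase and not by RNA polymerase III.

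The RefSeq annotation of GRCm38.p6, the same assembly as mm10, lists 20 nuclear glutamate tRNA genes among 430 tRNA genes. All 20 are 72 bases long, so counts of these tRNAs need no correction for length. Whether different tRNAs are sequenced with equal ease was not tested. There are 12 CTC genes on 8 chromosomes and 8 TTC genes on 6 chromosomes. None overlaps an exon of another gene, 13 are intergenic and 7 lie in introns. A cluster of 25 tRNA genes at chr1:171033942-171111515 holds 4 of the CTC genes, the first of which, at chr1:171064164-171064235, lies in an intron of Fcgr3, a gene for an immunoglobulin receptor. Another CTC gene, at chr7:99543900-99543971, lies in an intron of Arrb1, which encodes a beta-arrestin, and a further one, at chr17:56092001-56092072, lies in an intron of Hdgfl2. TTC genes lie in introns of Btn1a1 (chr13:23463535-23463606) and Elf1 (chr14:79481668-79481739). The isodecoder names of the count tables could not be paired with the RefSeq gene symbols, so a measured level belongs to an isodecoder and to none of these loci in particular.

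The glutamate tRNA of mitochondria, gene mt-Te at chrM:14071-14139 on the minus strand of mm10, is shown because it has the same TTC anticodon as the nuclear Glu-TTC isodecoders and is compared with them below. Its 69 bases follow, from the GENCODE M21 transcript, 5′ to 3′, with the anticodon at bases 31 to 33 in capitals.
mt-Te: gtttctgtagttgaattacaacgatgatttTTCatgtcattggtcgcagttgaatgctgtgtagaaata

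Total counts without the bacterial spike-in were 4830413 to 7588902 in mutant and 4353056 to 6171896 in wildtype cerebrum, and 2146717 to 7110313 in mutant and 1612754 to 5323340 in wildtype cerebellum. In cerebellum 4 of 5 mutant libraries and 1 of 6 wildtype libraries held more than 3500000 counts, so depth and genotype nearly coincide there. All 4 mutant and all 6 wildtype cerebrum libraries exceeded that number, so depth and tissue nearly coincide in wildtype mice. Mitochondrial tRNAs made up 14.3% ± 1.19 (SD, n = 4) of counts in mutant and 11.2% ± 0.445 (SD, n = 6) in wildtype cerebrum, and 17.2% ± 3.0 (SD, n = 5) in mutant and 13.4% ± 0.700 (SD, n = 6) in wildtype cerebellum. A share of nuclear counts leaves these mitochondrial counts out of the total.

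Glu-CTC had more counts than Glu-TTC in all 21 libraries. In wildtype cerebrum Glu-CTC held 2.36%, 2.62%, 2.53%, 2.52%, 3.12% and 2.55% of nuclear tRNA counts in libraries 1 to 6, and in mutant cerebrum 2.75%, 2.82%, 3.69% and 3.31% in libraries 1 to 4. Of these mutant libraries 2 were above every wildtype library and the other two lay within the wildtype range. In wildtype cerebellum its share was 4.51%, 4.75%, 4.79%, 4.43%, 3.90% and 4.90%, and in mutant cerebellum 3.93%, 3.76%, 3.85%, 4.09% and 4.46%. Of the mutant cerebellum libraries 2 were below every wildtype library. All cerebellum libraries had a higher Glu-CTC share than all cerebrum libraries of the same genotype. By mean share Glu-CTC was the 12th of 50 nuclear anticodons in wildtype cerebrum, the 9th in mutant cerebrum, the 6th in wildtype cerebellum and the 7th in mutant cerebellum.

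Glu-TTC held 1.48%, 1.91%, 1.88%, 1.95%, 2.29% and 1.89% of nuclear counts in wildtype cerebrum and 1.76%, 2.01%, 2.56% and 2.22% in mutant cerebrum. In wildtype cerebellum the values were 3.05%, 2.70%, 1.78%, 2.21%, 2.25% and 3.20%, and in mutant cerebellum 2.45%, 2.48%, 2.46%, 2.88% and 2.77%. The 6 wildtype cerebellum libraries spread most, and their range spans all 5 mutant libraries. The ranks of Glu-TTC among the 50 anticodons were 18 in wildtype cerebrum, 15 in mutant cerebrum, 14 in wildtype cerebellum and 12 in mutant cerebellum. Both anticodons together made up a mean of 4.52% of nuclear counts in wildtype cerebrum, 5.28% in mutant cerebrum, 7.08% in wildtype cerebellum and 6.62% in mutant cerebellum.

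**Figure D1:**
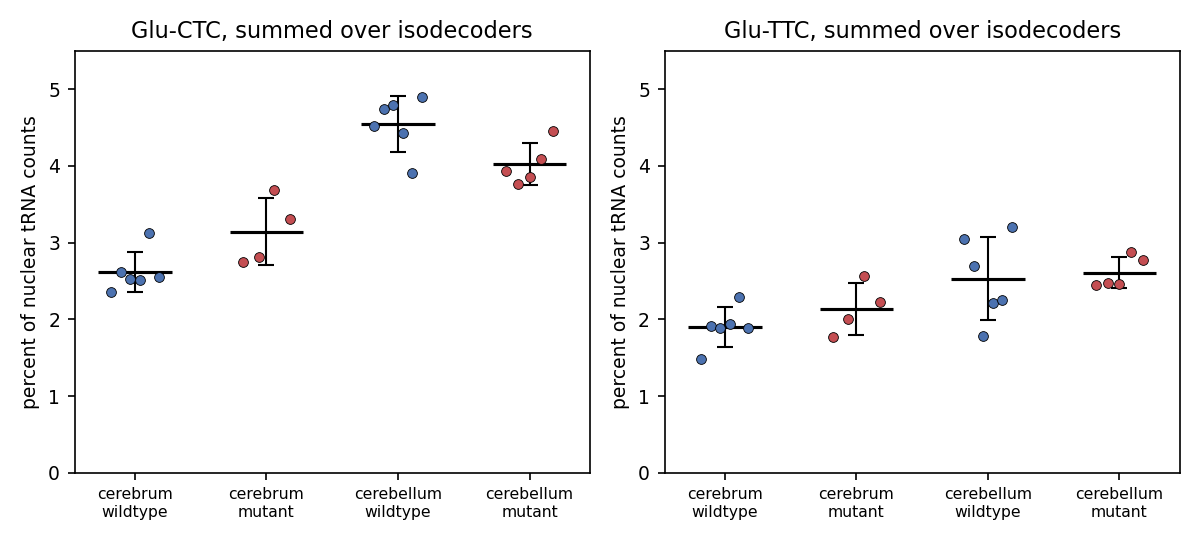
Share of nuclear tRNA counts held by Glu-CTC (left) and Glu-TTC (right), in percent, for the 4 groups; each point is a library, the line is the mean and the bar 1 SD. The Glu-CTC points of cerebellum, 3.76% to 4.90%, sit above those of cerebrum, 2.36% to 3.69%, while the Glu-TTC points of wildtype cerebellum run from 1.78% to 3.20%.

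Nearly all Glu-CTC counts belonged to a single isodecoder. Glu-CTC-1 held a mean of 99.95% to 99.97% of them in every group, while Glu-CTC-2-1 was counted 17 to 129 times per library. Glu-CTC-5-1, listed for cerebellum only, was counted 8 to 30 times and was too low to be tested. Glu-TTC was shared between Glu-TTC-1 and Glu-TTC-2. Glu-TTC-1 held 57.4% ± 0.505 (SD, n = 6) of Glu-TTC counts in wildtype cerebrum, 54.3% ± 0.461 (SD, n = 4) in mutant cerebrum, 61.0% ± 0.921 (SD, n = 6) in wildtype cerebellum and 60.1% ± 0.993 (SD, n = 5) in mutant cerebellum. Glu-TTC-3 was a minor isodecoder whose share differed by tissue, with 0.180% ± 0.0384 (SD, n = 6) in wildtype cerebrum and 0.879% ± 0.244 (SD, n = 6) in wildtype cerebellum. The labels do not say how reads that match several isodecoders were counted, so the split between isodecoders is less certain than the anticodon sum.

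Between the tissues of wildtype mice Glu-CTC and Glu-TTC-3 were higher in cerebellum, and Glu-TTC-1, Glu-TTC-2 and Glu-CTC-2-1 did not pass the test, although Glu-TTC-1 passed as higher in cerebellum with library totals (0.46, edgeR, adjusted p = 0.0021) and as lower with the spike-in (−0.75, edgeR, adjusted p = 0.00062). Levels are given as CPM, counts per common library size after TMM scaling, which sets libraries to a common level on the assumption that most tRNAs are alike. Between tissues 71.1% of all tRNAs in wildtype and 72.5% in mutant mice passed on this scale, in both directions. The assumption is therefore in doubt for the tissue contrasts. Glu-TTC-3 had 34.3, 30.2, 24.6, 32.9, 35.9 and 34.8 CPM in wildtype cerebrum and 144, 119, 148, 191, 152 and 235 CPM in wildtype cerebellum, so the tissues did not overlap. The ratio of the means was 5.13, and edgeR gave a log2 fold change of 2.36 ± 0.18 (SE) with an adjusted p of 5.6e-12. In mutant mice Glu-TTC-3 had 40.8, 31.8, 33.5 and 36.0 CPM in cerebrum and 94.4, 106, 163, 108 and 150 CPM in cerebellum, again without overlap, with a log2 difference of 1.81 ± 0.21 (SE, edgeR, adjusted p = 1.6e-08). Glu-TTC-3 was higher in cerebellum under all 4 other scalings, and by 1.47 in wildtype and 0.77 in mutant mice where libraries were scaled to the spike-in.

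Glu-CTC-1 was at 22106, 25018, 24652, 23185, 30241 and 25220 CPM in wildtype cerebrum and at 34509, 36693, 37982, 31984, 29009 and 38540 CPM in wildtype cerebellum. Of the cerebellum libraries 5 were above every cerebrum library, and library 5 was within the cerebrum range. The log2 fold change was 0.47 ± 0.10 (SE, edgeR, adjusted p = 0.00016), and the sum Glu-CTC gave 0.51 ± 0.09 (SE, edgeR, adjusted p = 1.6e-05). Spike-in scaling turned the sign of the Glu-CTC sum to −0.41 (edgeR, adjusted p = 0.051), with the median of all anticodon sums at −1.04 on that scale. In wildtype mice the Glu-CTC-1 change stood 0.52 above the median of all tRNAs with TMM and 0.58 above it with the spike-in. Rescaling the libraries moves all tRNAs by nearly the same amount. A distance from the median therefore hardly depends on the scaling, and its agreement between scalings is no separate support. In mutant mice Glu-CTC-1 had 33799, 28029, 31811 and 31828 CPM in cerebrum and 29869, 28630, 31847, 30832 and 34329 CPM in cerebellum, and these ranges overlap. Its log2 fold change was −0.01 ± 0.12 (SE, edgeR, adjusted p = 0.93), although all 5 mutant cerebellum libraries had a higher share of nuclear counts than the 4 cerebrum libraries. The sum Glu-CTC gave 0.08 in mutant mice (edgeR, adjusted p = 0.50), 0.31 with library totals (edgeR, adjusted p = 0.0089) and −1.09 with the spike-in (edgeR, adjusted p = 3.1e-06), where the median of all anticodon sums was −1.23.

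The 5 glutamate isodecoders tested thus gave 2 that passed in wildtype mice, both higher in cerebellum, against a background of 71.1% of all tRNAs that passed. In mutant mice 1 of 5 passed against a background of 72.5%. Of the anticodon sums 1 of 2 passed in wildtype mice, where 75% of all sums did, and 0 of 2 in mutant mice, where 80.6% did. No unadjusted p was under 0.05 for either sum in mutant mice in edgeR, and DESeq2 called neither. The sum Glu-TTC differed by 0.13 ± 0.12 (SE, edgeR, adjusted p = 0.32) between the wildtype tissues and by 0.02 (edgeR, adjusted p = 0.90) between the mutant tissues. With spike-in scaling these became −0.84 (edgeR, adjusted p = 0.00010) and −1.16 (edgeR, adjusted p = 2.4e-06), both passing as lower in cerebellum. Each tissue is a table of its own, so tissue and table cannot be told apart.

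**Figure D2:**
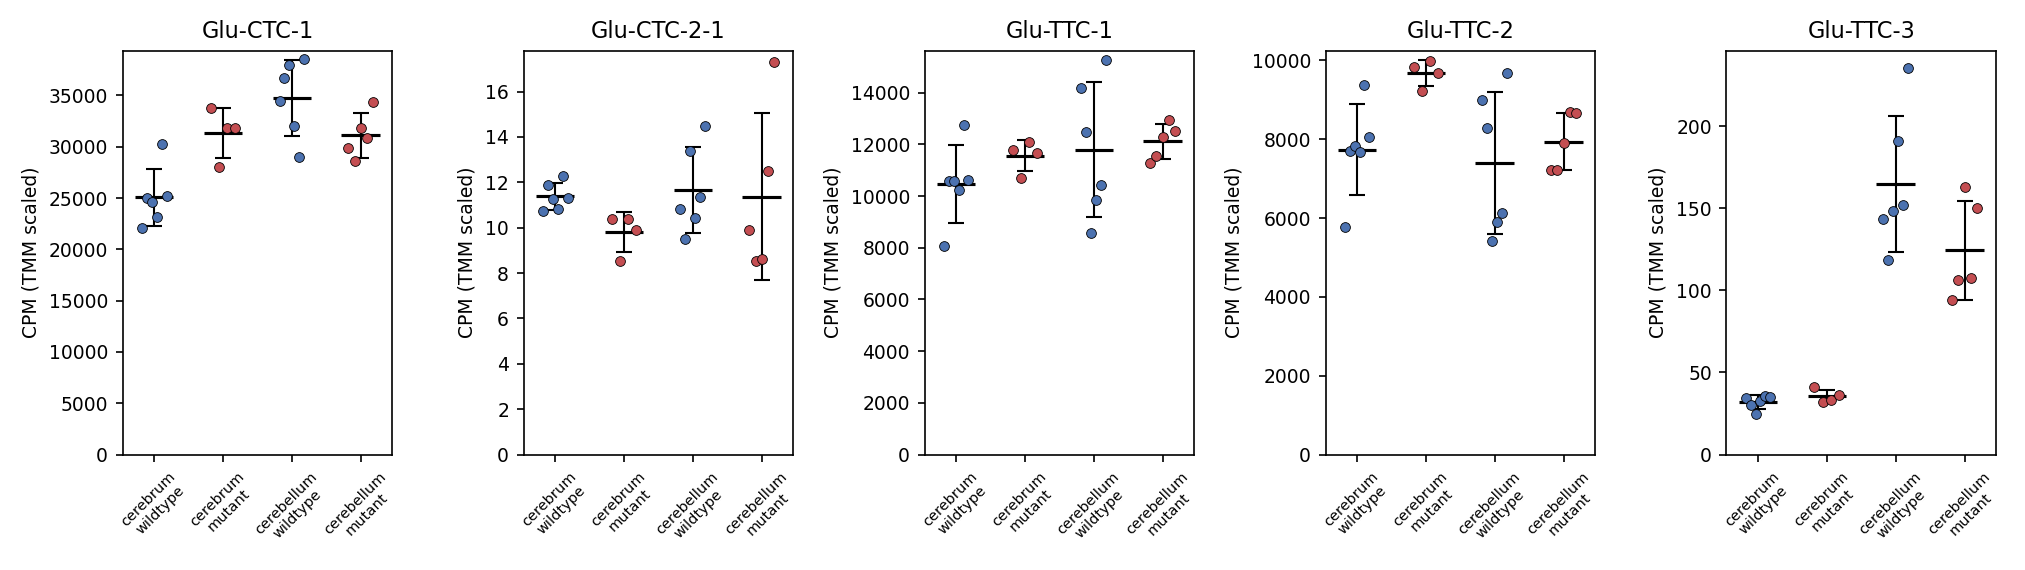
Level of the 5 glutamate isodecoders in CPM after TMM scaling (linear axes that start at 0, 1 panel per isodecoder) in the 4 groups; points are libraries, lines are means and bars are 1 SD. Glu-TTC-3 runs from 24.6 to 40.8 in cerebrum and from 94.4 to 235 in cerebellum, while the groups of the other isodecoders lie close together or overlap.

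In cerebrum the mutation left no glutamate tRNA past the test. Glu-CTC-1 in the libraries given above was higher in 3 of 4 mutant libraries than in any wildtype library, with a log2 difference of 0.25 ± 0.12 (SE, edgeR, adjusted p = 0.14). Glu-TTC-2 had 9840, 9222, 9984 and 9681 CPM in mutant and 5766, 7698, 7815, 7678, 9384 and 8063 CPM in wildtype libraries. Here 3 of 4 mutant libraries were above all wildtype libraries, and the log2 fold change was 0.25 ± 0.11 (SE, edgeR, adjusted p = 0.11). Both passed with DESeq2, Glu-CTC-1 at 0.31 (adjusted p = 0.032) and Glu-TTC-2 at 0.31 (adjusted p = 0.047), where DESeq2 called 52 of 208 tRNAs. Glu-TTC-2 also passed in edgeR without wildtype library 5, at 0.33 (adjusted p = 0.040). Glu-TTC-1 had 11784, 10708, 12083 and 11659 CPM in mutant and 8051, 10571, 10564, 10226, 12763 and 10617 CPM in wildtype libraries, all mutants within the wildtype range, with a change of 0.07 ± 0.11 (SE, edgeR, adjusted p = 0.71). The low isodecoders Glu-TTC-3 and Glu-CTC-2-1 gave 0.06 (edgeR, adjusted p = 0.85) and −0.29 (edgeR, adjusted p = 0.31). The sums gave 0.17 ± 0.12 (SE, edgeR, adjusted p = 0.37) for Glu-CTC and 0.07 ± 0.12 (SE, edgeR, adjusted p = 0.88) for Glu-TTC. With DESeq2 the sum Glu-CTC was at 0.09 (adjusted p = 0.62), although Glu-CTC-1 holds nearly all of its counts. Libraries were scaled separately for isodecoders and for sums, so nearly the same counts gave different changes. In edgeR 0 of 5 isodecoders passed where 19.7% of all tRNAs did, with 2 of the 5 at an unadjusted p under 0.05, and 0 of 2 sums passed where 11.1% of all sums did, with neither at an unadjusted p under 0.05 and neither called by DESeq2.

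These cerebrum signs depend on the scaling. With libraries scaled to their mitochondrial tRNA total the median of all anticodon sums was −0.29 in place of 0.02, and the sum Glu-CTC was at −0.15 and Glu-TTC at −0.24. With the spike-in the median of all sums was −0.25, with Glu-CTC at −0.09 and Glu-TTC at −0.19. Neither glutamate sum passed on these scales, where 26 and 5 of 72 sums did, all as lower. Of the isodecoders Glu-CTC-2-1 at −0.69 (edgeR, adjusted p = 0.012) and Glu-TTC-1 at −0.32 (edgeR, adjusted p = 0.031) passed with mitochondrial scaling. On that scale 111 of 208 tRNAs passed, all as lower. The median of all tRNAs was −0.03 with TMM, −0.41 with mitochondrial and −0.36 with spike-in scaling. Relative to it, Glu-CTC-1 stood 0.28 above with TMM and 0.27 above with both other scalings, and Glu-TTC-2 stood 0.28 above with all 3. This agreement follows from rescaling, which moves all tRNAs nearly alike, and is no separate support. With mitochondrial scaling Glu-TTC-1 was at 0.09 and Glu-CTC-2-1 at −0.27 relative to this median.

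In cerebellum no glutamate tRNA passed either, and the sum Glu-CTC had the lower mean in the mutant. Its log2 fold change was −0.28 ± 0.10 (SE, edgeR, adjusted p = 0.15, unadjusted p = 0.011), and that of Glu-TTC was −0.06 ± 0.14 (SE, edgeR, adjusted p = 0.80). Glu-CTC-1 gave −0.22 ± 0.11 (SE, edgeR, adjusted p = 0.25), with 1 of 5 mutant libraries below all wildtype libraries in CPM. Glu-TTC-3, in the libraries given above, was lower in 3 of 5 mutant libraries than in any wildtype library, with −0.46 ± 0.19 (SE, edgeR, adjusted p = 0.18). Glu-TTC-1 had 11295, 11547, 12279, 12944 and 12509 CPM in mutant and 14184, 12478, 8573, 9842, 10429 and 15260 CPM in wildtype libraries. Its wildtype values fell both above and below all mutant values, and the change was −0.01 ± 0.14 (SE, edgeR, adjusted p = 0.96). Glu-TTC-2 gave 0.05 (edgeR, adjusted p = 0.92) and Glu-CTC-2-1 −0.07 (edgeR, adjusted p = 0.92). In edgeR 0 of 5 isodecoders passed where 2.48% of all tRNAs did (5, but 33 without mutant library 5), with 1 of the 5 at an unadjusted p under 0.05. DESeq2 called 0 of the 5 isodecoders, and 23 of all 202 tRNAs. For the sums edgeR called 0 of 2 among 0% of all sums, with 1 of the 2 at an unadjusted p under 0.05, and DESeq2 called neither.

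Scaling changed the cerebellum calls. The sum Glu-CTC passed with mitochondrial scaling at −0.57 ± 0.16 (SE, edgeR, adjusted p = 0.015) and with the spike-in at −0.77 ± 0.27 (SE, edgeR, adjusted p = 0.041), while Glu-TTC at −0.35 and −0.51 did not. The median of all anticodon sums was −0.25 and −0.48 on these scales, where 11 and 16 of 71 sums passed, all as lower. Of the isodecoders Glu-CTC-1 passed, at −0.57 (edgeR, adjusted p = 0.013) and −0.77 (edgeR, adjusted p = 0.023). Glu-TTC-3 passed as well, at −0.81 (edgeR, adjusted p = 0.027) and −0.999 (edgeR, adjusted p = 0.010). Of all 202 tRNAs 53 and 83 passed on these scales, all as lower. The median over all tRNAs was −0.37 with mitochondrial and −0.59 with spike-in scaling. Relative to it, Glu-CTC-1 was at −0.19 with TMM, mitochondrial and spike-in scaling alike, and Glu-TTC-3 was at −0.43, −0.44 and −0.41. As in cerebrum, this agreement between scalings is built in and is no separate support. Depth moved with genotype here. Among the shallow libraries the log2 share of nuclear counts of Glu-CTC differed by −0.25 between the 1 mutant and the mean of the 5 wildtype libraries, and among the deep ones by 0.05 between the mean of the 4 mutants and the 1 wildtype library. For Glu-TTC-3 the mutant minus wildtype differences were −0.77 and −0.30. With depth class as a covariate and TMM scaling the Glu-CTC sum was at −0.20 (edgeR, adjusted p = 0.48). With depth class and mitochondrial scaling, a fit added after the data were seen, that sum was at −0.64 (edgeR, adjusted p = 0.057). Glu-CTC-1 at −0.64 (edgeR, adjusted p = 0.040) and Glu-TTC-3 at −1.08 (edgeR, adjusted p = 0.037) passed in that fit. Of all 202 tRNAs 48 passed there, all as lower.

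**Figure D3:**
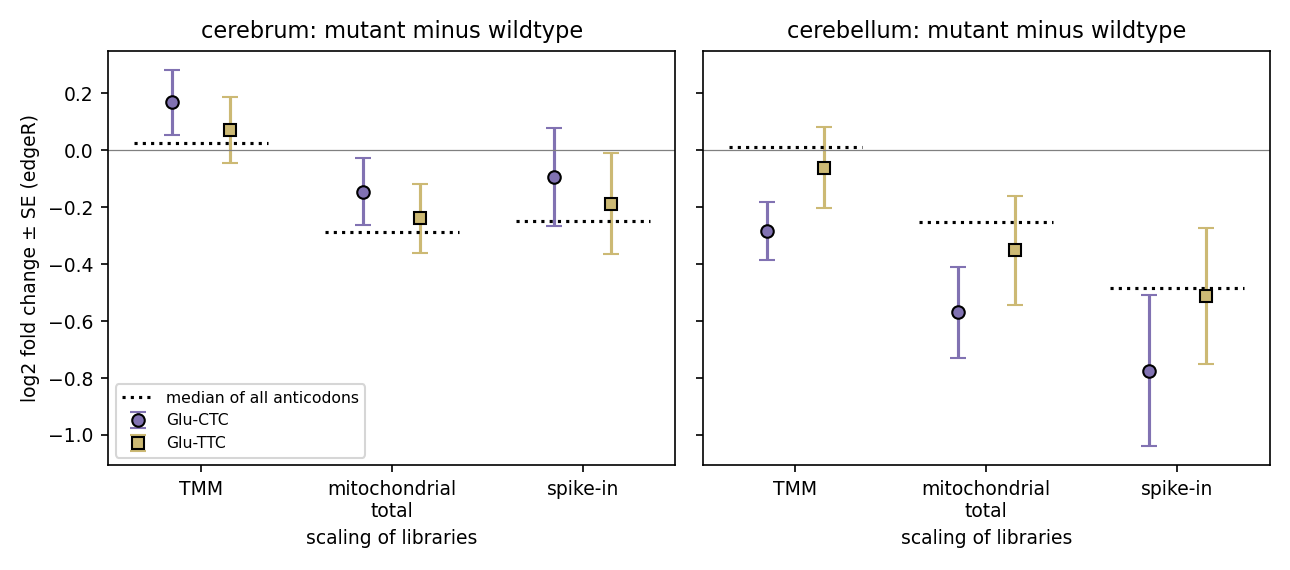
Log2 fold change of the anticodon sums, mutant minus wildtype, with its standard error from edgeR, under 3 scalings of the libraries; circles are Glu-CTC, squares Glu-TTC, and dotted lines the median of all anticodon sums. In cerebrum both sums lie above the dotted line on every scale and change sign with it. In cerebellum Glu-CTC lies below the line on every scale, at −0.28, −0.57 and −0.77. Rescaling moves the sums and the line nearly alike, so their order is not tested anew by each scale.

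With TMM scaling the mutant effect on the sum Glu-CTC was above 0 in cerebrum and below 0 in cerebellum, where neither passed, while with mitochondrial and spike-in scaling it was below 0 in both tissues. The difference between the tissues was tested in a model of all 21 libraries. For Glu-CTC-1 it was −0.48 ± 0.16 (SE, edgeR, adjusted p = 0.064), for the sum Glu-CTC −0.43 ± 0.14 (SE, edgeR, adjusted p = 0.14), and for the sum Glu-TTC −0.11 ± 0.18 (SE, edgeR, adjusted p = 0.97). The Glu-CTC-1 difference passed without cerebellum mutant 5 (−0.52, adjusted p = 0.030), cerebellum wildtype 5 (−0.53, adjusted p = 0.045), cerebrum mutant 2 (−0.54, adjusted p = 0.045) or cerebrum wildtype 5 (−0.55, adjusted p = 0.034). It also passed with DESeq2 (−0.49, adjusted p = 0.012) and with nuclear tRNAs only (−0.53, edgeR, adjusted p = 0.041). It did not pass with library totals (−0.46, edgeR, adjusted p = 0.062) or sex as a covariate (−0.49, edgeR, adjusted p = 0.075). Nor did it pass with mitochondrial (−0.42, edgeR, adjusted p = 0.28) or spike-in scaling (−0.68, edgeR, adjusted p = 0.59). Relative to the median of all tRNAs it was at −0.50 to −0.48 with TMM, library total, mitochondrial and spike-in scaling, a distance that rescaling leaves nearly unchanged by construction. Glu-TTC-3 gave −0.55 ± 0.26 (SE, edgeR, adjusted p = 0.31), and the remaining isodecoders lay between −0.22 and 0.20. In edgeR 0 of 5 isodecoders passed where 4.9% of all tRNAs did, with 2 of the 5 at an unadjusted p under 0.05. Of the sums edgeR passed 0 of 2 where 1.39% of all sums did, with 1 of the 2 at an unadjusted p under 0.05, and DESeq2 passed neither.

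Ratios within a library do not depend on how libraries are scaled. The ratio of Glu-CTC to Glu-TTC counts was 1.60, 1.37, 1.34, 1.29, 1.36 and 1.35 in wildtype cerebrum and 1.56, 1.40, 1.44 and 1.49 in mutant cerebrum, and wildtype library 1 was the highest of the 10. The means were 1.39 ± 0.107 (SD, n = 6) and 1.47 ± 0.0676 (SD, n = 4), which did not differ in an exact two-sided permutation test (p = 0.16, adjusted p = 0.19 over 4 comparisons). Without wildtype library 1 the mutants were higher by 0.13 on the log2 scale (exact permutation adjusted p = 0.032). In wildtype cerebellum the ratio was 1.48, 1.76, 2.69, 2.01, 1.74 and 1.53, and in mutant cerebellum 1.61, 1.52, 1.57, 1.42 and 1.61. The mutant values lay close together while the wildtype values spread widely, and the difference of −0.25 ± 0.13 (SE) on the log2 scale did not pass (exact permutation p = 0.082, adjusted p = 0.16). Within the depth classes the mutant minus wildtype difference was −0.20 (1 against 5 libraries) and −0.18 (4 against 1).

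Between wildtype tissues the ratio of Glu-CTC to Glu-TTC was higher in cerebellum by 0.40 ± 0.14 (SE) on the log2 scale (exact permutation p = 0.0065, adjusted p = 0.026), with 4 of 6 cerebellum libraries above all 6 cerebrum libraries. It did not pass where same-numbered libraries of both tissues were treated as pairs, a pairing that the labels do not state. The difference was 0.29 without cerebellum wildtype 3 (exact permutation adjusted p = 0.052), and leaving out any of 8 further libraries gave that adjusted p as well, with differences of 0.38 to 0.42. Between mutant tissues it was 0.07 ± 0.05 (SE, exact permutation p = 0.19, adjusted p = 0.19). The difference of the genotype effects between tissues was −0.34 (exact permutation of genotype labels within tissues, p = 0.021, adjusted p = 0.053 over 5 ratios).

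The balance of both main TTC isodecoders differed with genotype in cerebrum. Ratios of isodecoders were chosen after the counts had been seen and are adjusted over 16 comparisons. The ratio of Glu-TTC-1 to Glu-TTC-2 was 1.40, 1.37, 1.35, 1.33, 1.36 and 1.32 in wildtype and 1.20, 1.16, 1.21 and 1.20 in mutant cerebrum. All 4 mutant libraries lay below all 6 wildtype libraries. The means were 1.36 ± 0.0285 (SD, n = 6) and 1.19 ± 0.0221 (SD, n = 4), a log2 difference of −0.18 ± 0.02 (SE) with an exact permutation p of 0.0095, the smallest that 210 splits allow, and an adjusted p of 0.025. With any 1 cerebrum library left out the difference stayed between −0.19 and −0.17 and the adjusted p was at most 0.042. In cerebellum the ratio was 1.60 ± 0.0692 (SD, n = 6) in wildtype and 1.53 ± 0.0623 (SD, n = 5) in mutant libraries, and the ranges overlapped (exact permutation p = 0.10, adjusted p = 0.14). The difference of these effects between tissues did not pass (0.12, exact permutation p = 0.12, adjusted p = 0.15). The ratio was higher in cerebellum than in cerebrum, in 6 of 6 wildtype libraries by 0.24 (exact permutation p = 0.0022, adjusted p = 0.0087) and in 5 of 5 mutant libraries by 0.36 (exact permutation p = 0.016, adjusted p = 0.028). With 1 mutant library fewer, the smallest p of the mutant comparison no longer allows an adjusted p under 0.05.

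**Figure D4:**
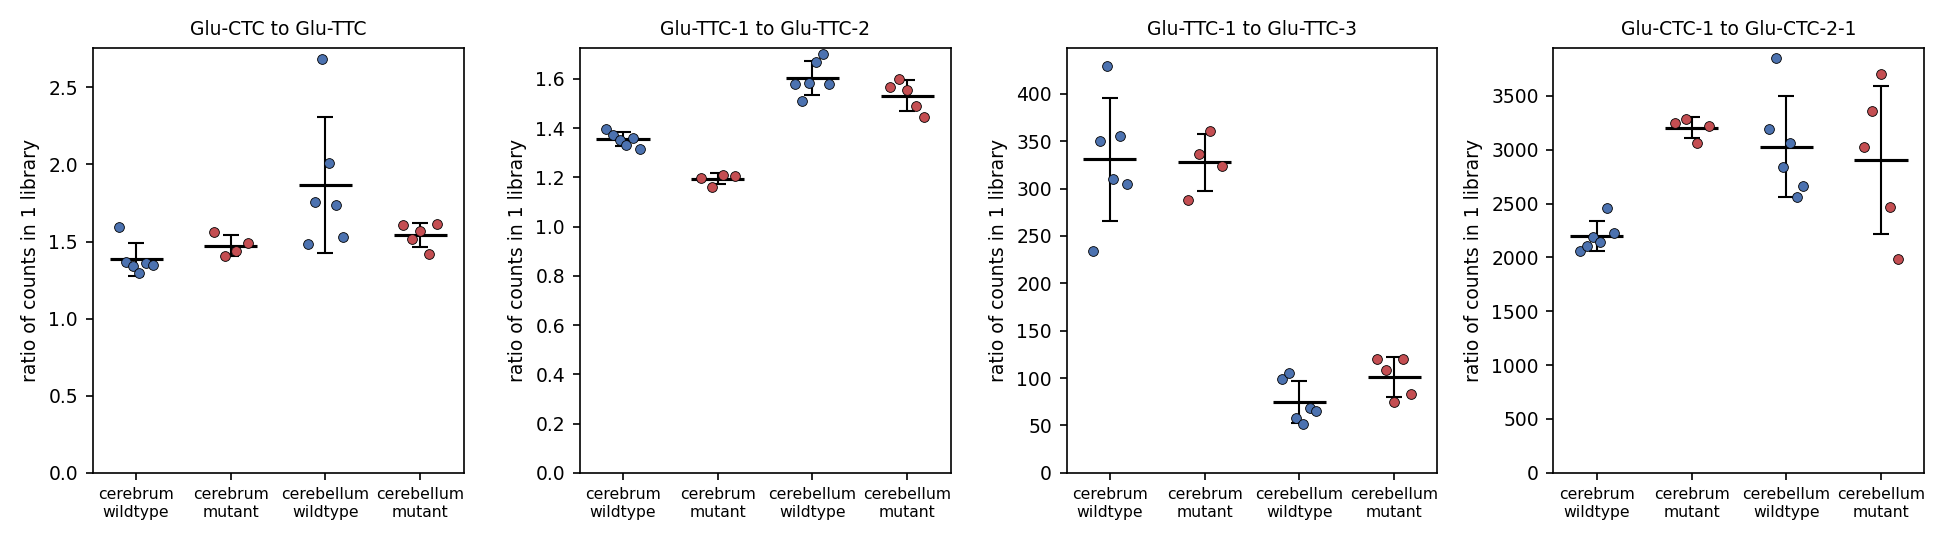
Ratios of counts within each library (linear axes that start at 0) for Glu-CTC to Glu-TTC, Glu-TTC-1 to Glu-TTC-2, Glu-TTC-1 to Glu-TTC-3 and Glu-CTC-1 to Glu-CTC-2-1; points are libraries, lines are means and bars are 1 SD. The Glu-TTC-1 to Glu-TTC-2 ratio of mutant cerebrum, 1.16 to 1.21, lies below that of wildtype cerebrum, 1.32 to 1.40, and the Glu-TTC-1 to Glu-TTC-3 ratio is lower in all cerebellum libraries than in all cerebrum libraries.

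The main and the minor CTC isodecoder also changed relative to each other in mutant cerebrum. Glu-CTC-1 counts were 3251, 3281, 3064 and 3217 times those of Glu-CTC-2-1 in mutant and 2061, 2108, 2187, 2142, 2461 and 2227 times in wildtype cerebrum. All 4 mutant libraries were above all 6 wildtype libraries, with a log2 difference of 0.55 ± 0.04 (SE, exact permutation p = 0.0095, adjusted p = 0.025). The minor isodecoder was counted 44 to 56 times per mutant and 45 to 68 times per wildtype library. Summed over libraries, 199 counts gave a ratio of 3205 (95% exact Clopper-Pearson interval 2789 to 3701) in the mutants and 313 counts a ratio of 2195 (1965 to 2460) in wildtype mice. These intervals cover counting error only. The ratios varied by 3.01% (mutant) and 6.44% (wildtype) of their mean between libraries, less than the 14.2% and 13.9% that counting alone would give, so the small standard error rests on libraries that agreed more closely than their counts would lead to. In cerebellum the ratio was 2905 ± 688 (SD, n = 5) in mutant and 3028 ± 469 (SD, n = 6) in wildtype libraries (exact permutation p = 0.65, adjusted p = 0.69), and the difference of the effects between tissues was −0.63 (exact permutation p = 0.011, adjusted p = 0.053).

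Glu-TTC-3 differed between tissues relative to both larger isodecoders of its anticodon. The ratio of Glu-TTC-1 to Glu-TTC-3 was 331 ± 65.0 (SD, n = 6) in wildtype cerebrum and 74.5 ± 22.1 (SD, n = 6) in wildtype cerebellum, a log2 difference of −2.18 ± 0.21 (SE, exact permutation p = 0.0022, adjusted p = 0.0087). In mutant mice it was 328 ± 30.2 (SD, n = 4) and 101 ± 21 (SD, n = 5), a difference of −1.71 ± 0.16 (SE, exact permutation p = 0.016, adjusted p = 0.028). The groups did not overlap in either genotype. Between genotypes this ratio gave 0.004 in cerebrum (exact permutation p = 0.98, adjusted p = 0.98) and 0.47 in cerebellum (exact permutation p = 0.074, adjusted p = 0.11). The ratio of Glu-TTC-2 to Glu-TTC-3 differed between cerebellum and cerebrum by −2.42 in wildtype and −2.07 in mutant mice. Its genotype difference in cerebellum was 0.54 (exact permutation p = 0.056, adjusted p = 0.090), and without wildtype library 2 it passed at 0.66 (adjusted p = 0.038).

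The mitochondrial glutamate tRNA, whose sequence stands above, had the higher mean in mutants of both tissues on the TMM scale. Per spike-in count the ratio of the mutant to the wildtype mean was 1.08 in cerebrum and 0.897 in cerebellum. Its level was 1769, 1944, 2321 and 2388 CPM in mutant and 1023, 1483, 1379, 1791, 1664 and 1552 CPM in wildtype cerebrum, with 3 of 4 mutants above all wildtype libraries and a log2 difference of 0.44 ± 0.14 (SE, edgeR, adjusted p = 0.030). In cerebellum it was 6378, 3946, 4496, 5036 and 3775 CPM in mutant and 3121, 3832, 3333, 3374, 3665 and 3139 CPM in wildtype libraries, with a change of 0.41 ± 0.13 (SE, edgeR, adjusted p = 0.10). Fitted among the anticodon sums, the mitochondrial tRNA passed in neither tissue. It gave 0.36 ± 0.16 in cerebrum (SE, edgeR, adjusted p = 0.12) and 0.35 ± 0.13 in cerebellum (SE, edgeR, adjusted p = 0.15). Between wildtype tissues it was higher in cerebellum by 1.20 with TMM scaling (edgeR, adjusted p = 1.2e-08). The cerebellum mean was 2.30 times the cerebrum mean in CPM and 1.22 times per spike-in count, and in mutant mice 2.24 and 1.02 times. The authors' deposited anticodon tables list it at 0.03 in cerebrum and 0.09 in cerebellum on the log2 scale, with adjusted p of 0.87 and 0.65. The medians over all features there are −0.29 and −0.21, where those of all sums with TMM scaling were 0.02 and 0.01. The authors' values and the TMM values are therefore on different scales and cannot be compared directly.

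The authors' deposited anticodon table for cerebrum lists Glu-TTC at −0.25 (adjusted p = 0.022) and Glu-CTC at −0.16 (adjusted p = 0.18) on the log2 scale, where the median over its 73 features is −0.29. Of these features 33 had an adjusted p under 0.05 in the authors' deposited table. For cerebellum the authors' deposited table lists Glu-CTC at −0.53 (adjusted p = 0.0023) and Glu-TTC at −0.31 (adjusted p = 0.24), with a median of −0.21 over 72 features. The authors' deposited isodecoder table for cerebellum lists Glu-CTC-1 at −0.53 (adjusted p = 0.0078) and Glu-TTC-3 at −0.78 (adjusted p = 0.010), and Glu-TTC-1, Glu-TTC-2, Glu-CTC-2-1 and Glu-CTC-5-1 with adjusted p of 0.20 to 0.38. The headers of the authors' deposited tables give no direction for their log2 values. The authors' deposited isodecoder table for cerebrum has the opposite sign to the anticodon table, with Glu-CTC-1 at 0.16 where the anticodon table has Glu-CTC at −0.16. By adjusted p its lowest glutamate isodecoders on the log2 scale were Glu-TTC-1 (0.33, adjusted p = 0.0014) and Glu-CTC-2-1 (0.70, adjusted p = 0.0019) in the authors' deposited table, against Glu-TTC-2 at 0.15 (adjusted p = 0.14) and Glu-TTC-3 at 0.34 (adjusted p = 0.070), where the median log2 value over its 210 features is 0.43.

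Related tRNAs were taken as a list: lysine TTT and CTT and glutamine TTG and CTG, whose codon pairs also end in A or G, and aspartate GTC, which reads the other codons of the glutamate box. In cerebrum 2 of 24 tested isodecoders of this list fell in mutants and 0 rose, namely Gln-TTG-2-1 (−0.67, edgeR, adjusted p = 0.019) and Lys-TTT-2 (−0.88, edgeR, adjusted p = 0.00025), with a list median of −0.11 against −0.03 for all tRNAs, of which 19.7% passed. In cerebellum, where 2.48% of all tRNAs passed, edgeR called 0 of 21 in the list, with 2 at an unadjusted p under 0.05, DESeq2 called 1, and the list median was −0.14 against −0.03. Among the 5 sums edgeR and DESeq2 called 0 between genotypes in either tissue, where edgeR called 11.1% of all sums in cerebrum and 0% in cerebellum, with Gln-CTG at −0.31 (adjusted p = 0.17) in cerebrum and Gln-TTG at −0.42 (adjusted p = 0.20, unadjusted p = 0.041) in cerebellum.

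Between tissues, on the TMM scale, most of the list was lower in cerebellum, where Glu-CTC was higher in wildtype mice. In wildtype mice 14 of 22 isodecoders were lower in cerebellum and 1 was higher, with a list median of −0.46 against −0.05 for all tRNAs. Of all tRNAs 71.1% passed there, 77 lower and 68 higher. In wildtype mice 4 of the 5 sums were lower, where 75% of all sums passed in either direction, from Gln-CTG at −0.91 (edgeR, adjusted p = 6.9e-07) to Asp-GTC at −0.38 (edgeR, adjusted p = 0.031). Lys-CTT at −0.24 did not pass (edgeR, adjusted p = 0.13). In mutant mice 14 of 22 isodecoders were lower and 1 higher, where 72.5% of all tRNAs passed, 75 lower and 73 higher. All 5 sums were lower, where 80.6% of all sums passed in either direction. The isodecoder that was higher was Lys-TTT-3-1 in both genotypes, by 0.87 and 0.70.

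Over the 21 libraries the anticodon sums whose log2 CPM followed Glu-CTC most closely were those of glycine, Gly-GCC (Pearson r = 0.80), Gly-TCC (0.79) and Gly-CCC (0.74), out of 70 compared. For Glu-TTC the same 3 came first, with r of only 0.32 to 0.33, and Glu-CTC and Glu-TTC had an r of 0.38 with each other. These are descriptions over libraries that share tissue, genotype, depth and a common total.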

How the data were processed

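Libraries were made with QuantM-tRNA-seq, a method for sequencing mature tRNA, from total RNA extracted with Trizol, per the labels' protocols. The submitters' processing notes name cutadapt, Bowtie2, featureCounts, DESeq2 and the build mm10, without versions or settings. The authors deposited raw read counts per tRNA, 1 table per tissue, and, in further tables, a log2 fold change, p-values and a mean signal (counts divided by size factors and averaged), per the file headers. Each count column carries a name that fits a single sample. The spike-in, a bacterial tRNA with a share of 0.222% to 0.374% (cerebrum) and 0.401% to 1.08% (cerebellum), entered neither library sizes nor tests.

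Genotypes and tissues were compared in R 4.3.3 (edgeR 4.0.16, limma 3.58.1) on all features of a tissue, or on the features in both tables for contrasts across tissues: TMM scaling, filterByExpr with a minimum count of 10, robust quasi-likelihood F tests and Benjamini-Hochberg adjustment over all features tested, with a threshold of 0.05. Groups followed the labels. For ratios, log2 values entered an exact two-sided permutation test (Python 3.11.15, scipy 1.17.1), p being the smaller tail doubled. CPM values were computed here from the deposited counts. The edgeR comparison of genotypes within each tissue, with TMM scaling, was tested on simulated counts. As many simulated tRNAs rose as fell, so a shift of most tRNAs in the same direction was not tested. The lowest chi-square per degree of freedom between replicates was 46.2, so no library was a copy of another. Alternatives were other scalings, DESeq2 1.42.0, no filter, nuclear tRNAs only, sex or depth class as a covariate, a replicate block and leaving out each library. Depth class with mitochondrial scaling, leaving out cerebellum mutant 1 and wildtype 5, and the isodecoder ratios were added after the data were seen. The members and lists were chosen with earlier results of these data known. All glutamate features and sums were named in each comparison, beside the mitochondrial glutamate tRNA, the list of related tRNAs, and the 3 anticodon sums most correlated with each glutamate sum.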

Additional observations from a re-analysis of the deposited data

Results flagged for a closer look

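Of 48 sets of libraries examined for a single value far from the rest, 2 stood out, and about 1 in 20 would do so by chance. Wildtype cerebrum library 5 had a Glu-CTC share of 3.12% of nuclear counts, where the nearest of the other 5 libraries had 2.62%. Wildtype cerebrum library 1 had a ratio of Glu-CTC to Glu-TTC of 1.60, where the nearest had 1.37.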

How the results depend on the processing

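Values are log2 differences, mutant minus wildtype or cerebellum minus cerebrum. In cerebrum, mitochondrial and spike-in scaling turned the genotype sign of Glu-CTC (−0.15, −0.093), Glu-TTC (−0.24, −0.19), Glu-CTC-1 (−0.14, −0.093), Glu-TTC-1 (−0.32, −0.27), Glu-TTC-2 (−0.14, −0.086) and Glu-TTC-3 (−0.33, −0.30). Glu-TTC was at −0.0054 with DESeq2 and −0.0053 with RLE size factors. In cerebellum these scalings moved Glu-CTC (−0.57, −0.77), Glu-CTC-1 (−0.57, −0.77) and Glu-TTC-3 (−0.81, −0.999) past the threshold. They turned Glu-TTC-2 (−0.31, −0.46, and −0.41 with depth class added to mitochondrial scaling). Glu-TTC turned with nuclear tRNAs only (0.018) and sex (0.0089). Glu-TTC-1 turned with depth class (0.021), DESeq2 (0.021), RLE (0.021), nuclear tRNAs only (0.039) and sex (0.040).

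Between mutant tissues spike-in scaling gave −1.09 for Glu-CTC, −1.16 for Glu-TTC, −0.81 for Glu-CTC-2-1 and −1.02 for Glu-TTC-1. Library totals gave 0.31 for Glu-CTC, 0.31 for Glu-CTC-1 and 0.029 for Glu-TTC-2, and moved Glu-TTC-1 (0.38, edgeR, adjusted p = 0.023) and Glu-CTC-2-1 (0.56, edgeR, adjusted p = 0.021) past the threshold. Glu-CTC-1 was at 0.038 with DESeq2 and with RLE and at 0.083 with mitochondrial scaling. Between wildtype tissues the spike-in gave −0.41 for Glu-CTC and Glu-CTC-1, −0.84 for Glu-TTC, −0.85 for Glu-CTC-2-1 and −0.75 for Glu-TTC-1, and library totals gave 0.38 for Glu-TTC, 0.46 for Glu-TTC-1 (edgeR, adjusted p = 0.0021) and 0.23 for Glu-TTC-2. With only the most abundant isodecoder of each anticodon the ratio of Glu-CTC to Glu-TTC gave 0.32 between wildtype tissues (exact permutation adjusted p = 0.069) and −0.079 between mutant tissues. The cause of these changes was not tested.

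Whether same-numbered libraries form pairs was not settled by the data. Within a tissue they differ in genotype and so are different animals. Correlations of their deviations exceeded 0.1 there in 2 of 4 pairs in cerebrum and 1 of 5 in cerebellum, and each library correlated best with its own number in 2 of 4 and 0 of 5. Between tissues the correlations exceeded 0.1 in 4 of 6 wildtype and 2 of 4 mutant pairs, with best matches in 2 of 6 and 1 of 4. The median r between tissues was 0.14 in wildtype pairs, against −0.03 for other numbers, and 0.08 against 0.04 in mutant mice. The main tissue tests took all libraries as unpaired. Same-numbered libraries of a genotype had the same sex in both tissues, and the labels do not say that they share an animal. A replicate block moved the calls from 41 to 65 tRNAs and from 8 to 27 sums in cerebrum. With the block Glu-TTC in cerebellum was at 0.052, Glu-TTC-1 there at 0.088, the tissue difference of Glu-CTC-2-1 at −0.022, and the wildtype tissue ratio of Glu-CTC to Glu-TTC at 0.40 (exact permutation adjusted p = 0.16). The isodecoder ratios that passed kept their direction with the block at exact permutation adjusted p of 0.056 between wildtype tissues and 0.17 in the other comparisons, where 4 pairs allow no p under 0.05. In cerebrum the block moved Glu-CTC-1 (0.30, edgeR, adjusted p = 0.037) and Glu-TTC-2 (0.33, edgeR, adjusted p = 0.0096) past the threshold, and across tissues the Glu-CTC-1 difference (−0.52, edgeR, adjusted p = 0.050).

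With each library left out in turn, the cerebellum genotype values ran from −0.14 to 0.053 for Glu-TTC, −0.28 to 0.042 for Glu-CTC-2-1, −0.087 to 0.079 for Glu-TTC-1 and −0.022 to 0.15 for Glu-TTC-2. In cerebrum Glu-TTC-3 ran from −0.011 to 0.14. The difference between tissues ran from −0.19 to 0.029 for Glu-TTC and −0.020 to 0.29 for Glu-CTC-2-1. Between mutant tissues Glu-TTC ran from −0.025 to 0.14 and Glu-CTC-1 from −0.063 to 0.016, and between wildtype tissues Glu-CTC-2-1 from −0.030 to 0.079 and Glu-TTC-2 from −0.16 to 0.011. The ratio of Glu-CTC to Glu-TTC ran from 0.064 to 0.13 in cerebrum and from 0.29 to 0.46 between wildtype tissues. The ratio of Glu-TTC-1 to Glu-TTC-3 in cerebrum ran from −0.090 to 0.085 and that of Glu-CTC-1 to Glu-CTC-2-1 in cerebellum from −0.18 to 0.048.

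Over all tRNAs, calls between genotypes changed from 41 in cerebrum to 111 with mitochondrial and 74 with spike-in scaling, all lower in mutants, and to 27 with nuclear tRNAs only. In cerebellum they changed from 5 to 53 and 83 with these scalings, 23 with DESeq2, 9 with library totals or no filter, 3 with sex, 48 with depth class and mitochondrial scaling, and 0 with depth class or without mutant 1 and wildtype 5. With 1 library left out, calls ran from 34 to 51 tRNAs and 3 to 20 sums in cerebrum (20 without mutant 1, 3 without mutant 2, 4 without wildtype 2 or 4, 5 without mutant 3). In cerebellum they ran from 2 to 33 tRNAs and 0 to 11 sums (33 and 11 without mutant 5, 12 and 5 without mutant 3; 1 sum without wildtype 2; 2 or 3 tRNAs without mutant 1 or 2 or wildtype 1, 4, 5 or 6). For the difference between tissues 7 to 21 tRNAs (21 without cerebellum mutant 5) and 0 to 4 sums were called. The low isodecoders Glu-CTC-2-1 and Glu-CTC-5-1 are limited by counts of 8 to 129 per library.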
